A study of Mus musculus with 2 samples.

Results

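Genes of the red blood cell were followed in RNA from primary keratinocytes, which form the epidermis, of mice labelled Rac1Rac3-DKO and of mice labelled Rac3-KO. The set holds 7 genes of 20144 named on the array: the globin genes Hba-a1, Hba-x, Hbb-bh1 and Hbb-y, the haem enzyme gene Alas2 and the membrane genes Slc4a1 and Epb42. They were given as a list of gene symbols, drawn up with earlier results of these data known and with no threshold on measured values, and 8 probes of 55678 matched them through RefSeq accessions. The Rac1Rac3-DKO sample lacks Rac1 and Rac3 according to its genotype label, and the Rac3-KO sample, which the titles name as the control, lacks Rac3, so the loss of Rac3 is common to both. Rac1 and Rac3 are small GTPases that relay signals to the actin cytoskeleton. Each genotype had 1 array of 1 colour, so there were no replicates, no difference was tested, and having a single array a group limits the precision throughout. The cells are described as P3 primary keratinocytes, an abbreviation that the labels do not explain. Strain, sex, number of animals and the cell type in which Rac1 was deleted are not given in the sources used here.

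Haemoglobin is a tetramer of alpha-like and beta-like globin chains, each holding a haem group that binds oxygen. In the mouse, Hba-x is the embryonic alpha-like (zeta) gene and Hbb-y and Hbb-bh1 are embryonic beta-like genes, which primitive red cells of the yolk sac use, while Hba-a1 and its copy Hba-a2 and the adult beta genes serve definitive red cells. Alas2 makes the first haem precursor in erythroid cells, Slc4a1 is the anion exchanger band 3 of the red cell membrane, and Epb42 is protein 4.2, which binds band 3. Reticulocytes in blood carry globin RNA although they have lost their nucleus. Which cells the globin RNA of these samples came from was not tested.

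Near-identical copies limit what a globin probe can name. The upstream DNA of the adult globin genes is shown to describe these copies, beside that of the embryonic genes and of Alas2. It lies outside the transcript, so its likeness cannot show which RNA a probe reads. The transcripts were not compared here. Each window holds the 250 bases before the annotated start, from RefSeq on GRCm38.p6, written 5′ to 3′ on the gene's strand. Capitals mark matches on either strand to 4 motifs of 5 letters. The first is TATAA, the core of the box at which many transcripts start to assemble their polymerase. The next, CCAAT, names a common promoter box. The others are CACCC, a box that KLF factors can bind, and GATAA, a motif that GATA factors can bind. Of the 7 members 5 had a window, namely Hba-a1, Hba-x, Hbb-y, Alas2 and Epb42.
Hba-a1 (chr11:32283422-32283671, plus strand): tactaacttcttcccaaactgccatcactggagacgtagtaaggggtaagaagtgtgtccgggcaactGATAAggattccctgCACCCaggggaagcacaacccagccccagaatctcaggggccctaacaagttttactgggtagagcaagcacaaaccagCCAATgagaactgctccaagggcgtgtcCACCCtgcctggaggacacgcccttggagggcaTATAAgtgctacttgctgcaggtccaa
Hba-a2 (chr11:32296242-32296491, plus strand): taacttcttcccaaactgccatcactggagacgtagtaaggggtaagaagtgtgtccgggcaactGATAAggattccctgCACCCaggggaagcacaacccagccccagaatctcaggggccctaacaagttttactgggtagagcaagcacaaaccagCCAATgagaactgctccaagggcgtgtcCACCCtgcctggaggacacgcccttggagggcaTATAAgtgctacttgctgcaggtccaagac
Hbb-bt (chr7:103813924-103814173, minus strand): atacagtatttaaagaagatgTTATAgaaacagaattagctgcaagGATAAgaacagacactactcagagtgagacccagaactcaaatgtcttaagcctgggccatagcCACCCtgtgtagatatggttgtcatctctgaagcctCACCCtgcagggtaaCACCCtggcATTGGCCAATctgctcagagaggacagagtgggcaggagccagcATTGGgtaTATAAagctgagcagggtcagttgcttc
Hbb-bs (chr7:103827929-103828178, minus strand): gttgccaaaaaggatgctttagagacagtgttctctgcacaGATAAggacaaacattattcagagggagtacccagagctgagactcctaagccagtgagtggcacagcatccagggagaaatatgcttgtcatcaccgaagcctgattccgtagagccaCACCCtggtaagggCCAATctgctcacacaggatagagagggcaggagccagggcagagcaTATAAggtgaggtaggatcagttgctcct
Hba-x (chr11:32276350-32276599, plus strand): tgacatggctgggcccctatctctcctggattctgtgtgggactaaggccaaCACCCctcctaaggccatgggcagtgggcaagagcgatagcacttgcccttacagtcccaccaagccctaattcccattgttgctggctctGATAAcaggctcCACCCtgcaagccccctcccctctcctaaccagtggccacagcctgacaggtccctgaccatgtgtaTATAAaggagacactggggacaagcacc
Hbb-y (chr7:103853208-103853457, minus strand): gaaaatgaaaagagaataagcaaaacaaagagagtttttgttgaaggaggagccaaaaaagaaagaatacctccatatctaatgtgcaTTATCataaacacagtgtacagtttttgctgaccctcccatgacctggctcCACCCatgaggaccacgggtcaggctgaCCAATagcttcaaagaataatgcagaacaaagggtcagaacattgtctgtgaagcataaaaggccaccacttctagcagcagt
Alas2 (chrX:150547167-150547416, plus strand): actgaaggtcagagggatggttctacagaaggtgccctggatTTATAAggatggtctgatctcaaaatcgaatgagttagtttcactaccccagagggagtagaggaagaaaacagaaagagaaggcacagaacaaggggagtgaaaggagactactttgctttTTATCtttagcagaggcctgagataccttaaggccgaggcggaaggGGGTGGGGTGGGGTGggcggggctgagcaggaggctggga
The Hba-a1 and Hba-a2 windows were identical over all 247 bases that aligned, so these copies differ little even outside the transcript. The windows of the adult beta genes Hbb-bt and Hbb-bs shared 182 of 242 aligned bases (75.2%). All 4 motifs stood in each of these 4 adult globin windows, and 0.969% of 32817 windows in the table held all 4. Singly, TATAA was present in 22.8% of the windows, CCAAT in 33.8%, CACCC in 52.0% and GATAA in 22.6%. Counted back from the start, the TATAA match nearest to it began at base 27 in Hba-a1, 30 in Hba-a2, 28 in Hba-x, 28 in Hbb-bt and 29 in Hbb-bs. Hba-x held all but CCAAT, and Hbb-y all but TATAA. Epb42, whose window is not printed because the gene was not detected, held TATAA and GATAA only. In Alas2, which like Hba-x lacked CCAAT, the 2 TATAA matches, 1 per strand, overlap in 1 run, and the 3 CACCC matches lie side by side on the other strand. In Hbb-bt 2 CCAAT matches of opposite strands adjoin, and no other matches in the printed windows overlap. A match describes these letters only, and binding was not measured.

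Probes well above background, by the scanner software's own mark, made up 52.9% of the array labelled DKO and 56.9% of the array labelled KO. The 75th percentile of the processed signal, by which each array was scaled, was 354 on the array labelled DKO and 705 on the array labelled KO. Levels below are log2 of the processed signal minus log2 of that percentile, and differences are DKO minus KO on the same scale. No spot was saturated: the brightest probe read 436244 and 467835 on the arrays labelled DKO and KO, against a limit of 777181. Rac1, the gene that distinguishes the labels, was not clearly lower on the array labelled DKO, with differences of 0.28 and -0.12 at its probes, each under 2 software errors, and Rac3 was well above background on both arrays. The deleted exons are not given in the labels and no probe was aligned here to its transcript, so these probes may lie outside the deleted part and then check nothing. The arrays are therefore named by label throughout.

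The adult alpha globin gene Hba-a1 was among the brightest probes on both arrays and was 1.65-fold higher on the array labelled DKO after 75th percentile scaling, though not with spike-in scaling. Its processed signal was 361120 on the array labelled DKO and 435050 on the array labelled KO. They ranked 4 and 5 of 55678 probes by signal, which describes brightness and not an amount of RNA, since probes differ in their response. Before scaling the DKO signal was thus 0.830 times the KO signal. After scaling the levels were 9.99 and 9.27, a difference of 0.72 with a software error of 0.20. The array labelled DKO had the lower signal and the higher level, because its 75th percentile was lower by 0.99 (log2). In such a bulk sample, more cells of a type and more RNA per cell cannot be told apart. The software error is technical only, and for bright probes it is a fixed fraction of the signal. It holds no variation between cultures or animals.

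The other adult globins, a list that is separate from the 7 members, gave nearly the same picture with 75th percentile scaling, and were lower on the array labelled DKO with spike-in scaling (median of the list -1.28). Hba-a2 read 430801 on the array labelled DKO and 456555 on the array labelled KO (difference 0.91). Among the adult beta genes, Hbb-bt read 275182 and 288593 (0.92). Hbb-b2 read 67409 and 81040 (0.73), and Hbb-bs 23135 and 26778 (0.78), with the array labelled DKO first each time. Over Hba-a1 and these 4 probes the differences lay between 0.72 and 0.92, with a median of 0.78 and an SD between probes of 0.097, and all 5 adult globins had slightly lower unscaled signals on the array labelled DKO, at 0.830 to 0.954 times the KO signal. These probes are not independent readings. Hba-a1 and Hba-a2 encode near-identical transcripts, and Hbb-b2 belongs to a different beta haplotype of inbred mice than Hbb-bs and Hbb-bt, so a probe named for one gene may read RNA of another. Hbb-b1, Hbb-bh0, Hbb-bh3 and the globin chaperone gene Ahsp had no matched probe and were not analysed here.

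**Figure D1:**
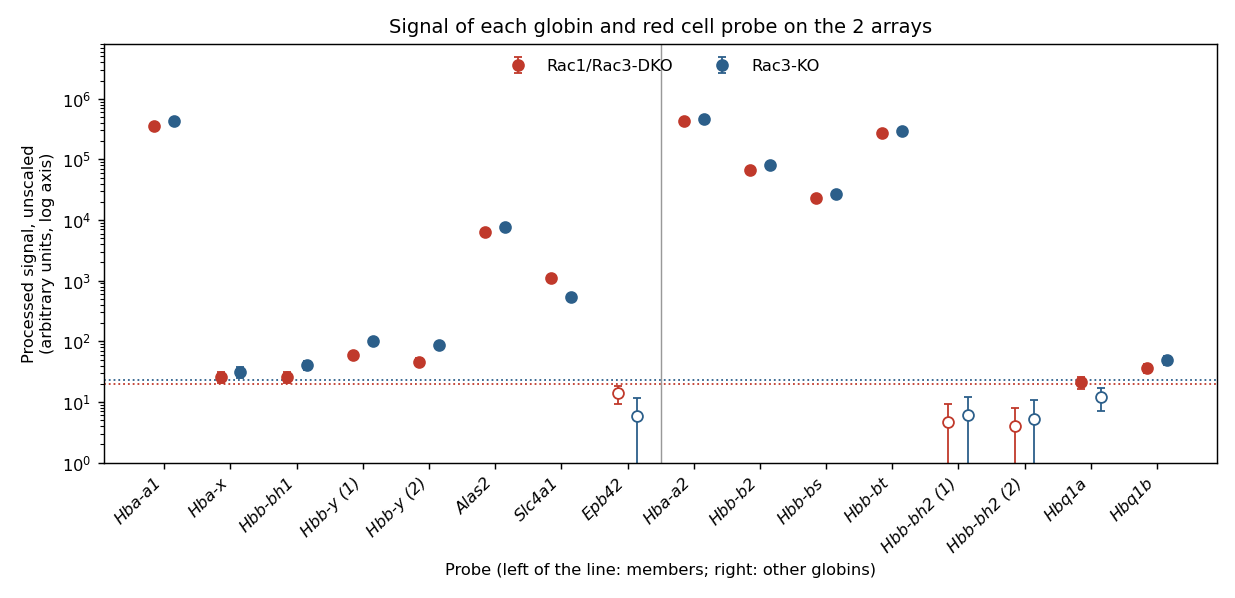
Unscaled processed signal (log axis) of each probe of the 7 members, left of the line, and of other globin genes, right of it, on the array labelled DKO (red) and the array labelled KO (blue). Bars are the scanner software's signal error, open symbols are probes not well above background, and dotted lines mark the lowest signal well above background on each array (20.1 and 23.4); adult globin signals nearly coincide, and Slc4a1 is the member with the higher unscaled signal on the array labelled DKO among those detected.

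The embryonic globin probes were dim on both arrays, and their differences did not exceed 2 software errors. Hbb-y, the embryonic epsilon-like gene, read 59.4 on the array labelled DKO and 101 on the array labelled KO at its brighter probe, and 46.3 and 88.1 at the other. Its log2 differences were 0.23 with an error of 0.24 and 0.064 with an error of 0.27. Both Hbb-y probes therefore differed by less than their error. Hbb-bh1, the early embryonic beta-like gene, read 25.6 on the array labelled DKO and 40.9 on the array labelled KO, a difference of 0.32 with an error of 0.39. Hba-x, the zeta gene, read 25.8 on the array labelled DKO and 31.3 on the array labelled KO, a difference of 0.72 with an error of 0.42.

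These dim values lie close to the limit of detection. The lowest signal well above background was 20.1 on the array labelled DKO and 23.4 on the array labelled KO. Hba-x stood at 1.29 and 1.33 times that signal, Hbb-bh1 at 1.27 and 1.74 times, and the brighter Hbb-y probe at 2.95 and 4.30 times. Because the arrays were scaled by different constants, a probe exactly at that lowest signal on both arrays would show a difference of 0.77. The 0.72 of Hba-x is no larger than that. The theta-like gene Hbq1b, also dim, read 36.7 and 49.2 (0.57 with an error of 0.33). Its neighbour Hbq1a was well above background on the array labelled DKO only (21.3 beside 12.2). After scaling it was at least 1.81-fold higher there. That bound rests on the scaling, since 21.3 lies below the lowest signal well above background on the array labelled KO. Both Hbb-bh2 probes were not well above background on either array. Embryonic globin transcripts can resemble adult ones, and whether their probes read a part of the far brighter adult RNA was not tested.

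Alas2, the erythroid haem synthesis enzyme, differed by nearly as much as the adult globins. It read 6262 on the array labelled DKO and 7694 on the array labelled KO, at levels of 4.14 and 3.45. The log2 difference was 0.70 with an error of 0.20, or 1.62-fold higher on the array labelled DKO. Its unscaled signal was lower there, and with spike-in scaling its difference was -1.37. Set against Hba-a1, its difference was smaller by 0.028 with an error of 0.29, so the 2 genes were not distinguishable on these arrays.

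Slc4a1, the anion exchanger, stood apart from the other members. It read 1109 on the array labelled DKO and 539 on the array labelled KO, 2.06 times as much before any scaling. The levels were 1.65 and -0.39, a difference of 2.03 with an error of 0.20, or 4.09-fold higher on the array labelled DKO. With spike-in scaling its difference was -0.028. Among 14144 measured genes 98.8% had a smaller difference, whereas Hba-a1 and Alas2 had 86.0% and 85.1% below them. The Slc4a1 difference exceeded that of Alas2 by 1.34 and that of Hba-a1 by 1.31, each with an error of 0.29. It rested on 1 probe with 1 spot per array, so no second probe repeats it, and the root mean square SD between probes of a gene was 0.38 over 3578 genes. Epb42, whose product binds band 3, was not well above background on either array, with signals of 14.0 on the array labelled DKO and 5.79 on the array labelled KO, and no fold is given for it.

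Of the 7 members, 6 were well above background on both arrays, and 1 of these 6, Slc4a1, was higher by 2-fold or more on the array labelled DKO, as were 7.71% of 14144 measured genes. Lower by 2-fold or more were 0 of the 6, against 6.62% of measured genes. At 1.5-fold, 4 of 6 were higher (Hba-a1, Hba-x, Alas2 and Slc4a1), against 18.2% of measured genes, and 0 were lower, against 16.5%. Hba-x is among the 4 although its 0.72 is no larger than the 0.77 of a probe at the lowest signal well above background. At 3-fold, 1 was higher, against 2.29%, and 0 were lower, against 2.23%. All 6 differences were above 0 with 75th percentile scaling (below 0 with spike-in scaling), with a median of 0.71 beside -0.0077 over all measured genes. Without Slc4a1 the median of the other 5 was 0.70. Before scaling, 5 of the 6 had lower signals on the array labelled DKO, and the sign of those 5 differences thus rests on the scaling.

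**Figure D2:**
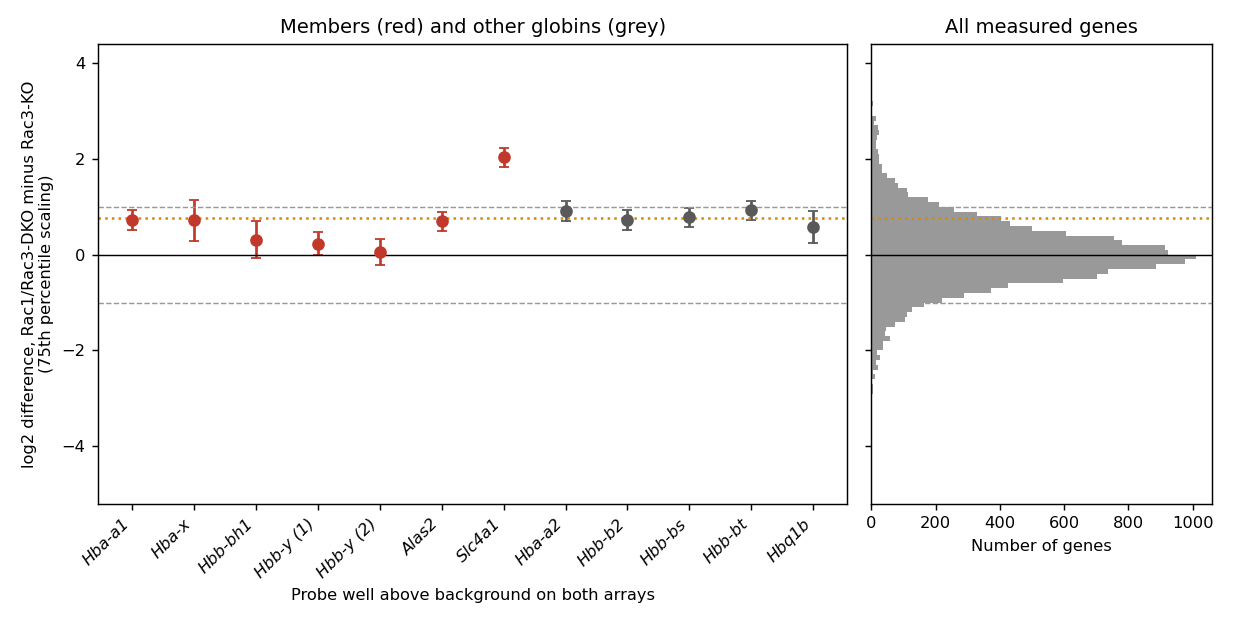
Left, log2 difference (DKO minus KO, after 75th percentile scaling) of each member probe (red) and other globin probe (grey) well above background on both arrays, with bars of 1 software error. Right, number of measured genes by difference. Dashed lines mark 2-fold, and the dotted line at 0.77 is the difference of a probe at the lowest signal well above background on both arrays. Hba-x, a dim probe, lies near that line. The adult globins and Alas2 also lie near it, but at unscaled signals of 6262 or more. Slc4a1 lies above them at 2.03 (below 0 with spike-in scaling).

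Genes around the members were read from 6 lists of red cell biology. Among 27 genes of the red cell membrane and its skeleton, 20 were measured, of which 5 were higher by 2-fold or more and 2 lower by as much (median 0.48). Over all measured genes 7.71% were higher and 6.62% lower by as much. Tmod1, which caps actin filaments, read 580 on the array labelled DKO and 200 on the array labelled KO, 5.78-fold higher after scaling. Ank1, the ankyrin that ties band 3 to spectrin, read 673 and 374 (3.57-fold), and Sptb, beta spectrin, 218 and 126 (3.45-fold). These 3 were also higher before scaling, as Slc4a1 was. Trim10, a protein of erythroid maturation, was 3.75-fold higher, with signals of 71.3 and 37.8, so it too was higher before scaling. Its signal on the array labelled KO was 1.61 times the lowest well above background there. Rhd, a Rhesus blood group gene, was 2.004-fold higher, with signals of 153 and 152. The glucose transporter gene Slc2a1 was 5.28-fold lower and Bcam, a laminin-binding blood group protein, 2.45-fold lower. All 10 keratinocyte markers were lower too (median -1.87). The part of keratinocyte RNA in the lower genes of this and the following lists was not tested.

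Further membrane genes were near the limit of detection. Kel, the Kell blood group protein, was detected on the array labelled DKO only (38.1 beside 21.7) and was at least 3.24-fold higher. Icam4 was detected on the array labelled KO only and was at least 1.08-fold lower on the array labelled DKO, and Rhag was not well above background on either array. Ank1, Sptb and Tmod1 are used by striated muscle as well as by red cells. On the same arrays all 10 striated muscle markers were measured and 9 were at least 2-fold higher (median 2.60), beside 7.71% of measured genes. Their summed level was 2037 times the 75th percentile signal on the array labelled DKO and 370 times on the array labelled KO. The brightest muscle markers, Tnnc2 and Tnni2, read 259874 and 192616 on the array labelled DKO, against 97854 and 60617 on the array labelled KO. The part of muscle RNA in the differences of these genes and of Slc4a1 was not tested.

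Haem synthesis genes other than Alas2 lay on both sides of 0. All 8 were measured, 3 were above 0, 0 were at least 2-fold apart, and the median was -0.19. Among all measured genes, 7.71% were higher and 6.62% lower by 2-fold or more. Fech, which inserts iron into the haem ring, had the highest difference at 0.59 (6750 on the array labelled DKO and 8919 on the array labelled KO). Alad, the second enzyme of the pathway, had the lowest at -0.95 (405 and 1556). The steps after Alas2 run in most cell types, so their signal is not particular to red cells.

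Transcription factors of the erythroid lineage went both ways. Of 14 listed, 12 were measured, 2 were higher by 2-fold or more and 1 lower by as much (median 0.22). The shares over all measured genes were 7.71% and 6.62%. Gata1, the GATA factor of erythroid, megakaryocyte and mast cells, read 398 on the array labelled DKO and 253 on the array labelled KO, 3.12-fold higher. Nfe2, a factor of erythroid and platelet genes, was 2.45-fold higher (77.8 and 63.1). Bcl11a, a repressor of embryonic globin genes, was 2.33-fold lower (1539 and 7139). Klf1, the activator of the adult beta globin gene, was not well above background on either array (4.52 and 25.0).

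Iron supply genes were also split. Of 15 listed, 14 were measured, 2 were higher by 2-fold or more and 2 lower by as much (median 0.26). For this list and the next, the shares over all measured genes were 7.71% higher and 6.62% lower. Hmox1, which breaks haem down, read 39618 on the array labelled DKO and 11316 on the array labelled KO, 6.96-fold higher, and its dimmer probe gave 6.70-fold. Tfrc, the transferrin receptor through which erythroblasts take up iron, was 3.41-fold lower (85.4 and 579), and its further measured probe had a difference of -0.91. Slc11a2, an iron transporter, was 2.17-fold lower at its brighter probe, while its dimmer probe had a difference of 1.14 the other way. Tfr2 was detected on the array labelled KO only and was at least 2.14-fold lower. Among 16 red cell enzyme and maturation genes 14 were measured, with a median of 0.26. Only Tent5c, a poly(A) polymerase, was higher by 2-fold or more (2.23-fold), and only the nuclear exporter gene Xpo7 lower by as much (2.05-fold), although its second probe differed by -0.51.

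**Figure D3:**
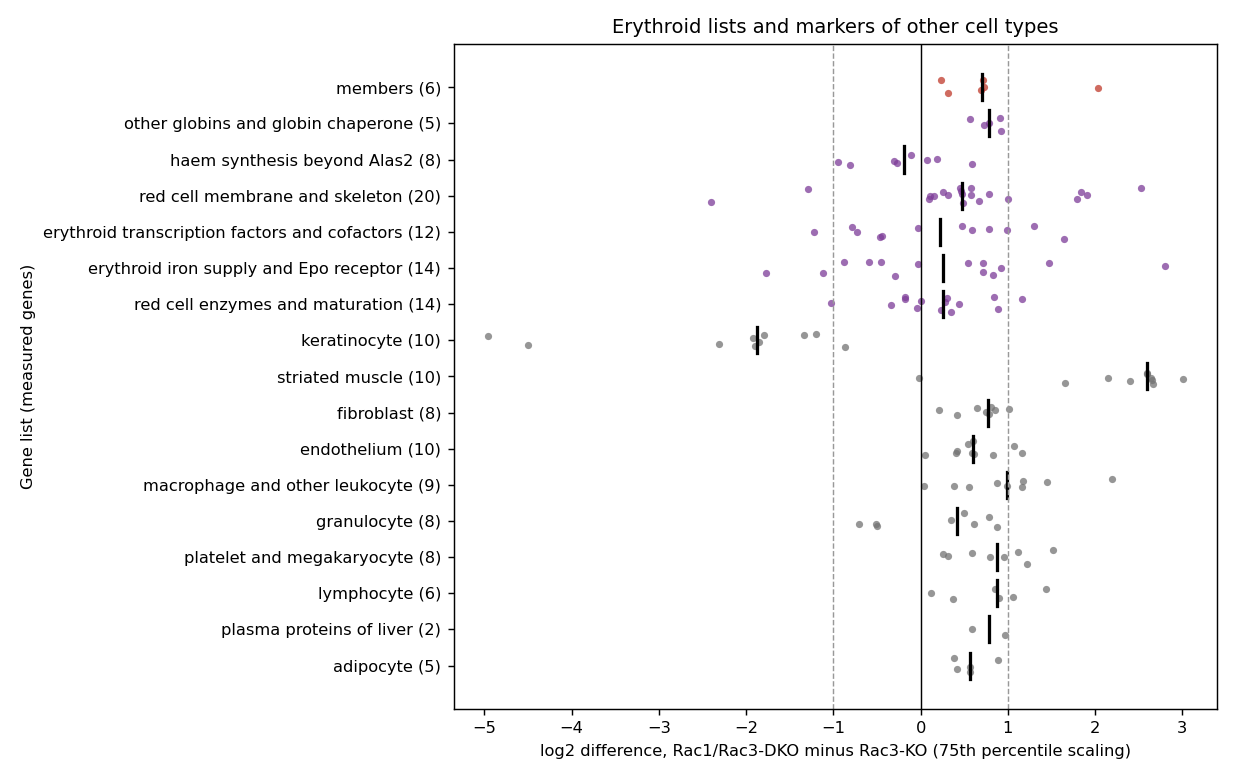
Each point is a gene well above background on both arrays, by its log2 difference (DKO minus KO, 75th percentile scaling), in the members (red), the other red cell lists (purple) and markers of other cell types (grey); black bars are medians, dashed lines 2-fold, and numbers in brackets count measured genes. The measured globins lie between 0.23 and 0.92, the keratinocyte markers at -0.87 or lower, and the muscle markers at 1.66 or higher except Myh4 at -0.018.

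Markers of other cell types had differences as large as those of the globins. All 10 keratinocyte markers were detected on both arrays, so RNA of the labelled cell type was present. Of the 10, 9 were lower by 2-fold or more on the array labelled DKO (median -1.87), beside 6.62% of measured genes. Krt5, a basal keratin, read 47847 and Perp, a junction protein, 25087 on the array labelled DKO, against 219046 and 125916 on the array labelled KO. The summed keratinocyte level was 276 times the 75th percentile signal on the array labelled DKO and 993 times on the array labelled KO. All 8 fibroblast markers were above 0 (median 0.77, summed level 2574 and 1475), as were all 10 endothelial markers (median 0.60, 70.8 and 44.2). The brightest of these, Col1a2 and Col3a1 of fibroblasts and Egfl7 and Kdr of endothelium, differed by 0.85, 0.79, 0.42 and 1.17. The fibroblast median thus lay beside the adult globin median of 0.78.

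Markers of other blood cells were mostly above 0, with exceptions among the granulocyte markers. The 9 measured macrophage and leukocyte markers had a median of 0.99 (summed level 113 on the array labelled DKO and 51.0 on the array labelled KO). The brightest of them, Csf1r and Itgam, differed by 1.45 and 1.16, and Cd163 had the highest difference at 2.19. The 8 measured platelet and megakaryocyte markers of 10 had a median of 0.87 (120 and 55.7), with Pf4, a platelet chemokine, at 1.12. The 6 measured lymphocyte markers of 10 had a median of 0.88 (6.20 and 3.38), with Cd3e at 0.90 and Nkg7 at 0.86. Granulocyte markers, 8 measured of 11, had a median of 0.42 (19.0 and 15.1), and 5 of the 8 were above 0. The brightest, S100a9 and S100a8, differed by 0.35 and 0.61, whereas Camp, Ltf and Ngp differed by -0.71, -0.50 and -0.52, and Mpo was detected on the array labelled KO only. Of 6 adipocyte markers 5 were measured (median 0.57, 190 and 139), with Fabp4 at 0.38 and Adipoq at 0.57. Of 7 genes of plasma proteins made in liver 2 were measured, Apoa2 and Serpina1a at 0.59 and 0.97. Serpina1a was dim (27.2 and 27.6), near the lowest signals well above background, at which a probe would show 0.77. Defining markers that were not well above background on either array were Gp5 and Gp6 of platelets, Ms4a1 of B cells, and Prtn3 and Mmp9 of granulocytes. The part of these cells in the globin difference was not tested.

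The size of the globin difference depended on how the arrays were made comparable, while Slc4a1 was the highest member in each. On the scale of the spike-in RNAs, which read 1.07 (log2) higher on the array labelled DKO, Hba-a1 differed by -1.34, Alas2 by -1.37 and Slc4a1 by -0.028, and the median of all measured genes by -2.07. On that scale 14 measured genes were higher by 2-fold or more and 13182 lower by as much. Relative to that median Hba-a1 stood at 0.73, Alas2 at 0.70 and Slc4a1 at 2.04, the same distances as with 75th percentile scaling. With quantile normalization Hba-a1 differed by 0.030, while Slc4a1 differed by 2.03. That method gives probes of equal rank the same value, so the ranks of Hba-a1, 4 and 5, fix a small difference. Slc4a1 lay above the median of the other 5 members by 1.34 with 75th percentile scaling. Scaling by 1 constant per array, spike-ins included, cannot change that distance. Of the processings that can, normexp gave 1.25, background-subtracted signal 1.397, loess 1.57 and quantile normalization 1.83.

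**Figure D4:**
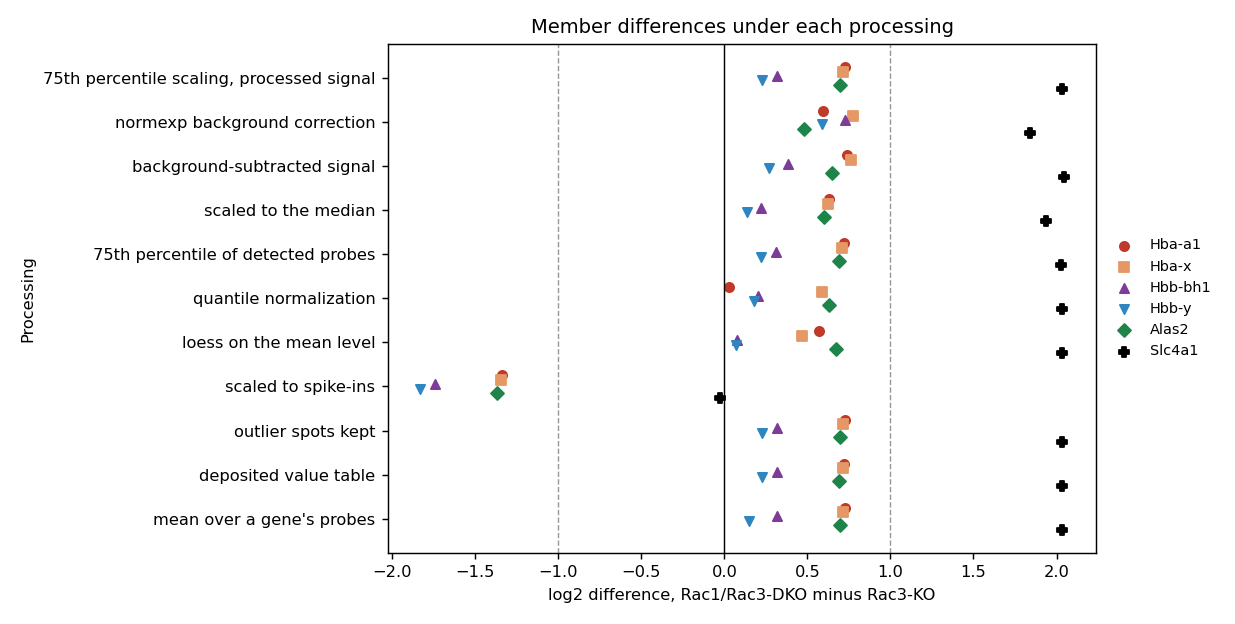
Log2 difference (DKO minus KO) of the 6 members well above background on both arrays under each way of processing, with 1 symbol per gene; dashed lines mark 2-fold. All 6 lie above 0 except with spike-in scaling, where all 6 lie below 0, and Slc4a1 is the highest member in each of them.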

How the data were processed

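Cy3-labelled cRNA of 2 samples was hybridised to 1-colour Agilent arrays, 1 per genotype. Per the file headers, the deposited spot intensity was made with Agilent Feature Extraction 10.10.1.1 (version 9.1 in the submitters' processing notes), background-subtracted, detrended and not scaled between arrays. Both arrays share a slide and a scan, per the file headers. The authors' deposited log2 value table matched log2 of the processed signal less 1 offset per array, within 0.001 for 100% of the 55246 singly spotted probes. Its scale and centring are thereby known.

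Control spots and 190 and 155 spots marked as outliers (arrays labelled DKO and KO) were left out, spots of a probe were averaged, and each array's 75th percentile was subtracted. Accessions matched, without versions, to RefSeq genes of GRCm38.p6, used for names only since the design was drawn on mm9, named 26580 probes and left 29098 unnamed here. A gene was read from its probe with the highest mean level, and counted as measured if both arrays had it well above background. Where 1 array alone detected a probe, its level was compared with the other array's detection floor, or with the dim value if that was higher, and the fold is written as a lower bound. With 1 array per genotype no test was run; counts used 2-fold. The software error of a difference had a median of 0.20, and the SD over 275 probes spotted at least 8 times a median of 0.087.

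The members and lists were chosen with earlier results of these data known. Named are all members and globins with a probe, list genes at least 2-fold apart (up to 4 each way, or the extremes where there were none) and the 2 brightest genes of each marker list. Rhd, Kel, Icam4, Tfr2, Klf1, Rhag, Myh4, Camp, Ltf, Ngp, Mpo, Cd163 and the undetected markers were named after their values were seen. With 2 arrays no gene was named for a like pattern. Normexp (limma 3.58.1, R 4.3.3, offset 50) used the median spot signal because the files hold no mean signal, a choice made after seeing the data. Other alternatives were other background and scaling methods, outlier spots kept, the deposited table, the mean over probes, 1.5-fold and 3-fold thresholds, and filters on dim probes. The counting was tested on simulated data. Protein identities were not computed here, and some genes that the rule names are not reported here. Python 3.11.15 was used.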

Additional observations from a re-analysis of the deposited data

How the results depend on the processing

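With 1 array per genotype, no replicate could be left out. No paired analysis was possible because each genotype has 1 sample and no test was run. Spike-in scaling turned the differences of all 6 measured members: Hba-a1 -1.338, Hba-x -1.345, Hbb-bh1 -1.745, Hbb-y -1.832, Alas2 -1.366 and Slc4a1 -0.028. Then 0 members were higher by 2-fold or more and 5 lower by as much, beside 14 and 13182 of 14144 measured genes. The list medians were -1.28 (other globins), -2.25 (haem synthesis), -1.58 (membrane), -1.84 (transcription factors), -1.80 (iron supply) and -1.80 (enzymes). By construction it moves every gene by the same amount, and the median of all genes moved to -2.07. Normexp gave 0.73 for Hbb-bh1, 0.59 for Hbb-y and 0.48 for Alas2. Quantile normalization gave 0.030 for Hba-a1 and 0.48 for the median of other globins. It gives probes of equal rank the same value, so the ranks of Hba-a1, 4 and 5, fixed a small difference in advance. The cause of the lower list median was not tested. At 1.5-fold 4 members were higher, as were 18.2% of measured genes. With no filter on detection 2 members were at least 2-fold higher, as were 2122 of 20144 genes. Epb42, not detected, then counts, and the iron supply median was -0.025. With both signals at least 2 times the lowest well above background, the transcription factor median was 0.47. Of genes at least 2-fold apart, 53.8% were higher with 75th percentile scaling and 43.6% with median scaling (0.106% with spike-ins). Signal near background limits Hba-x, Hbb-bh1 and Epb42.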
